A study of Mus musculus with 9 samples.

Results

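The genes described here are 29 genes of cholesterol synthesis and its control. They are the enzymes that build cholesterol, the proteins that set how much of them is made, and a few proteins that move or store sterols. They were chosen by name, and all 29 were found among the 26358 genes of the deposited table. Messenger RNA of mouse oocytes was sequenced in 9 libraries, 3 from each of 3 groups. The fresh group was not frozen. The cryopreservation-1 group was frozen in a very small drop on a cryotop, which is a strip of film, in 15% EG, 15% DMSO and 0.5 M sucrose. In the cryopreservation-2 group they were frozen in a straw, in 17.5% EG, 1 M trehalose and PVA/Fe3O4/GO nanoparticles. The carrier, the solutes and the particles all differ between the frozen groups, so their parts in any difference cannot be told apart. The labels give no strain, age, oocyte stage, number of pooled oocytes or time after thawing.

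Cholesterol is built from acetyl-CoA through mevalonate, the isoprenoids, squalene and lanosterol. The transcription factors encoded by Srebf1 and Srebf2 switch on most of the pathway's genes when membranes run low in sterol. Scap carries these factors out of the endoplasmic reticulum, and Insig1 and Insig2 hold Scap back when sterol is plentiful. Insig1 is itself a target of the factors that it restrains. Mouse oocytes are known for making little cholesterol of their own and for taking it from the surrounding cumulus cells. A fully grown oocyte transcribes few genes, so its messenger RNA was mostly made earlier and stored.

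The SREBP factors act on promoters together with the general factors NF-Y and Sp1. RefSeq promoters on GRCm38.p6, each running from 250 bases before to 50 bases after a start, were given for 24 of the 29 genes (32 promoters). The bases before the start are shown for Insig1 and Idi1, a regulator and an enzyme whose RNA fell in the cryopreservation-2 group, and for Hmgcs1, which carries the sterol response core. They lie at chr5:28071162-28071411, chr13:8885356-8885605 and chr13:119690101-119690350, all on the plus strand. They are written 5′ to 3′, with capitals marking matches on either strand to CCAAT (the NF-Y box), GGGCGG (the Sp1 box), CACGTG (an E-box) or TCACNCCAC (a sterol regulatory element core).
Insig1: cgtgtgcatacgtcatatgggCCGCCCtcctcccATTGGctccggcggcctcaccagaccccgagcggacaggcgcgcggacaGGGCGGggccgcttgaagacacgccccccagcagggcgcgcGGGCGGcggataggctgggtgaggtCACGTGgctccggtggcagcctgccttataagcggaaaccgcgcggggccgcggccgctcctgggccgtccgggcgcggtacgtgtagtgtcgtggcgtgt
Idi1: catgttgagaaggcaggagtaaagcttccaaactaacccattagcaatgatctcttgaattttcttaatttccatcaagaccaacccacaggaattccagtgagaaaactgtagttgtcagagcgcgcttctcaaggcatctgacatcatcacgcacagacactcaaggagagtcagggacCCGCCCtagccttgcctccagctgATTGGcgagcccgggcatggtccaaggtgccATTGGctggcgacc
Hmgcs1: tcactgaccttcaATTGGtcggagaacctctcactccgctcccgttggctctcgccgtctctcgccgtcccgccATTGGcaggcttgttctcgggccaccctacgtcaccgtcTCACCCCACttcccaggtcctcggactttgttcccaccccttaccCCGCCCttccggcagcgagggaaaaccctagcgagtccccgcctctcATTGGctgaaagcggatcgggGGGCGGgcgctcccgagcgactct

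No matches overlap in these 3 stretches. The start of Insig1 in the deposited table lies 49 bases upstream of the RefSeq start, and that of Idi1 lies 105 bases upstream, so the ends of these stretches fall inside the deposited gene models. Insig1 holds an NF-Y box 216 bases before its start, Sp1 boxes 229, 167 and 126 bases before it, and an E-box 101 bases before it. Idi1 holds an Sp1 box 69 bases before its start and NF-Y boxes 45 and 14 bases before it. An NF-Y box stood in a promoter of 21 of the 24 genes (87.5%), against 43.3% of 11616 genes tested here that had a promoter. An Sp1 box stood in 22 of the 24 (91.7%), against 61.1%. The E-box stood in 5 of the 24 (20.8%), against 10.9%. The sterol core stood in 1 of the 24, Hmgcs1, at 137 bases before its start, against 1.38% of genes tested. Nr1h2, the third gene that fell, held none of these letter strings. Because the genes were picked by pathway, these shares are descriptions without a test.

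Levels were compared between genes on the FPKM scale, which divides reads by gene length and library size. In fresh oocytes 11 of the 29 genes had a mean of at least 10 FPKM, 9 lay between 1 and 10 FPKM, and 9 lay under 1 FPKM. Insig1 was the highest, at 69.5 ± 4.95 FPKM (mean ± SD, n = 3), which placed it at the percentile 97.6 of all genes in the table. Hmgcs1, an early synthase of the mevalonate pathway, followed at 43.9 ± 11.2 FPKM, and the isomerase gene Idi1 at 34.8 ± 1.57 FPKM. The ranges of Hmgcs1 and Idi1 overlapped between libraries, so their order is not set. Lbr (30.2 ± 5.63 FPKM), Nr1h2 (29.3 ± 3.15 FPKM) and Sc5d (26.3 ± 1.66 FPKM) came next and also overlapped. The lowest genes stood in the same pathway as the highest. Mvd, the mevalonate diphosphate decarboxylase, averaged 0.250 ± 0.334 FPKM, Pmvk, the phosphomevalonate kinase, 0.226 ± 0.101 FPKM, and Mvk, the mevalonate kinase, 0.156 ± 0.175 FPKM. These 3 enzymes act one after another between Hmgcs1 and Idi1. Tm7sf2, a sterol reductase, had 0, 0 and 2 counts in the fresh libraries.

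**Figure D1:**
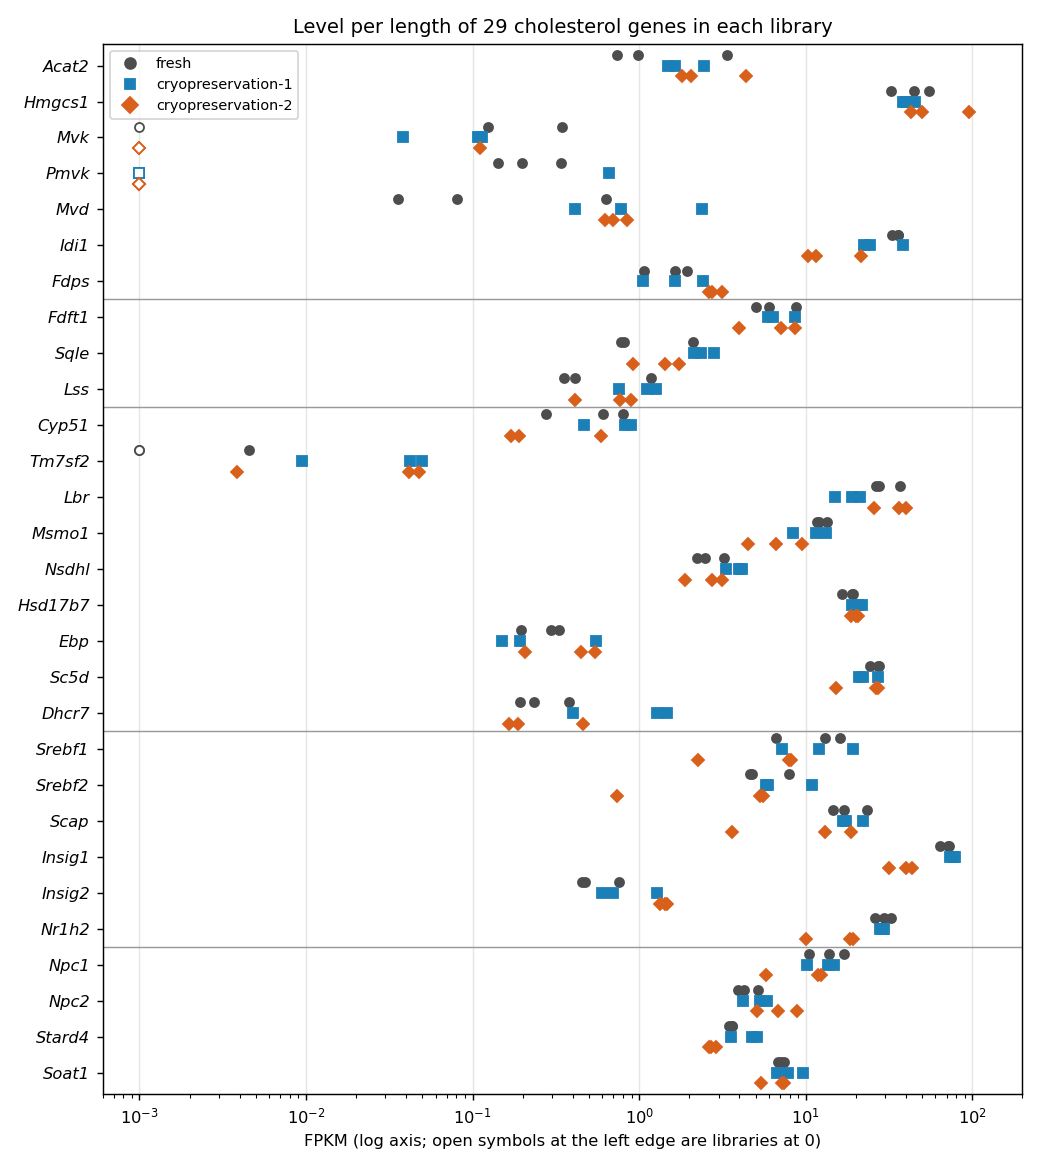
FPKM of each of the 29 genes (log axis) in every library, with circles for fresh, squares for cryopreservation-1 and diamonds for cryopreservation-2 oocytes; grey lines separate the mevalonate pathway, squalene and lanosterol steps, lanosterol to cholesterol, control, and transport genes. Open symbols at the left edge are libraries at 0 and can coincide; Insig1 has the highest fresh mean (69.5 FPKM), and Mvk, Pmvk and Tm7sf2 are at 0 in some libraries.

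Differences between groups were tested gene by gene on the counts with edgeR, and a gene was called at an adjusted p under 0.05. Levels within a gene are given as CPM, counts scaled to a common library size by TMM, and differences as log2 fold changes with the standard error (SE) of the fit. All 29 genes passed the filter on low counts. None was called between cryopreservation-1 and fresh oocytes, where edgeR called 0% of the 17545 genes tested. At an unadjusted p under 0.05 there were 3 of the 29 genes in that comparison, Tm7sf2, Lbr and Dhcr7, against 4.72% of all genes, and DESeq2 called none of the 29. Between cryopreservation-2 and fresh oocytes 3 of the 29 were called, against 5.38% of all genes. All 3 were lower (Insig1, Idi1 and Nr1h2), where 2.2% of all genes were called lower, and none of the 29 was called higher, where 3.18% of all genes were. Between cryopreservation-2 and cryopreservation-1 only Insig1 was called, lower, against 2.75% of all genes in either direction, 1.25% lower and 1.5% higher. The comparisons with fresh oocytes share the fresh libraries, and both comparisons of cryopreservation-2 share its libraries.

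The middle of the 29 genes lay near that of all genes in the comparisons with fresh oocytes. The median log2 fold change was 0.07 for cryopreservation-1 (all genes 0.02) and −0.15 for cryopreservation-2 (all genes −0.06). Against cryopreservation-1 the median of cryopreservation-2 was −0.64, where all genes had a median of −0.07. On the lower side in that comparison lay 22 of the 29 genes and 9336 of the 17545 genes tested. Against fresh oocytes 19 of the 29 (9190 of all) lay lower in cryopreservation-2 and 10 of the 29 (8388 of all) in cryopreservation-1. Leaving out 1 library at a time moved the median against fresh oocytes between −0.30 and −0.06 (without cryopreservation-2 replicates 1 and 3) and that against cryopreservation-1 between −0.64 and −0.45. Without 3 libraries that had the fewest genes detected, a fit chosen after seeing the data, the latter was −0.29.

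Counted in either direction, the share of genes whose libraries did not overlap between groups was close to that of all genes. In the comparisons of cryopreservation-2 more of these genes were lower than higher. Between cryopreservation-1 and fresh oocytes this held for 4 of the 29 genes (10.1% of all genes), with 3 higher (Tm7sf2, Nsdhl and Dhcr7, 6.37% of all genes) and 1 lower (Lbr, 3.72%). Between cryopreservation-2 and fresh oocytes it held for 9 (27.5%), with 3 higher (Fdps, Tm7sf2 and Insig2, 15.1%) and 6 lower (Pmvk, Idi1, Msmo1, Insig1, Nr1h2 and Stard4, 12.4%). Tm7sf2 had 0, 0 and 2 counts in fresh, 21, 4 and 15 in cryopreservation-1 and 14, 12 and 2 in cryopreservation-2 libraries. Its place in both comparisons thus rests on a few counts. In FPKM its cryopreservation-2 libraries overlapped the fresh ones (0.00384 against 0.00452). Between the frozen groups it held for 9 (29%), with 2 higher (13.8%) and 7 lower (15.2%).

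**Figure D2:**
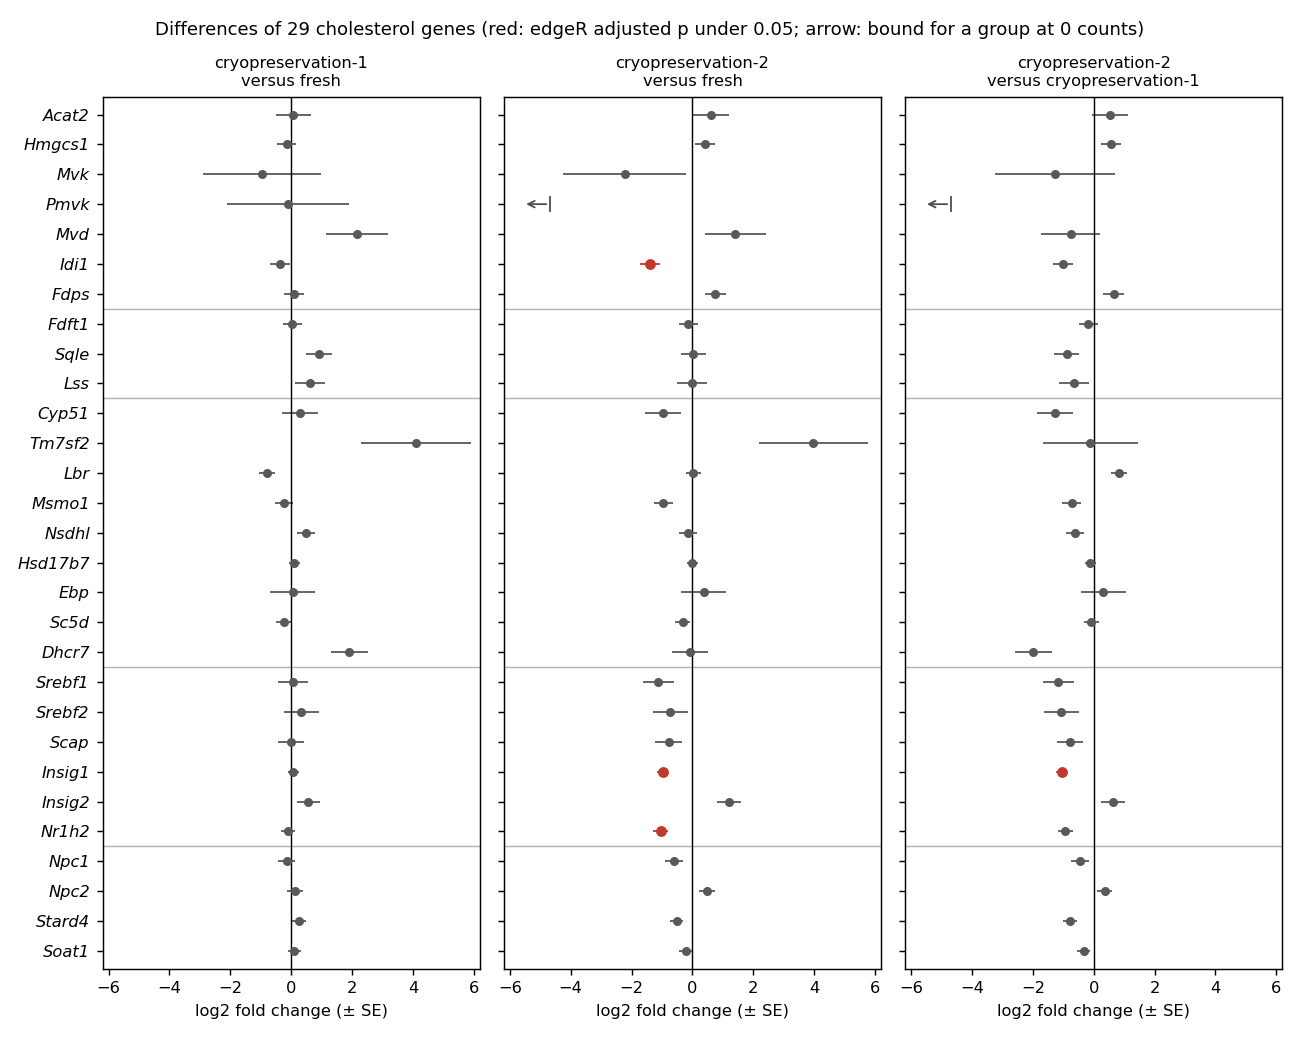
Log2 fold change of each of the 29 genes with its SE (edgeR, 3 libraries a group) in the 3 comparisons, in pathway order; red points passed an adjusted p under 0.05. Insig1, Idi1 and Nr1h2 lie left of 0 in red against fresh oocytes and Insig1 alone against cryopreservation-1; the arrows mark Pmvk, whose cryopreservation-2 libraries all had 0 counts, at its bound.

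In the mevalonate pathway 1 of 7 genes was called, Idi1, which encodes the isomerase that makes dimethylallyl diphosphate for all isoprenoids. Idi1 stood at 140, 148 and 148 CPM in fresh libraries, at 89.9, 98.0 and 150 CPM in cryopreservation-1 and at 86.3, 43.0 and 37.5 CPM in cryopreservation-2. Every cryopreservation-2 library was below every other library, with the first of them close to the lowest of cryopreservation-1. Idi1 fell 2.62-fold against fresh oocytes (log2 −1.39, SE 0.33, adjusted p = 0.0377). Against cryopreservation-1 its log2 fold change was −1.02 (SE 0.32, adjusted p = 0.115). That difference was called by DESeq2 (adjusted p = 0.0385), by limma on log2(FPKM + 1) (0.0442) and by edgeR without cryopreservation-2 replicate 1 (log2 −1.42, adjusted p = 0.0399). Limma on log2(FPKM + 0.1) did not call it. The call against fresh oocytes was lost when only these 2 groups were fitted and in 7 of the 9 fits that left out 1 library (adjusted p up to 0.118), whereas without cryopreservation-2 replicate 1 the log2 fold change was −1.80 (adjusted p = 0.0140).

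Hmgcs1 was not called in any comparison. It stood at 229, 191 and 297 CPM in fresh libraries, at 202, 210 and 233 CPM in cryopreservation-1 and at 504, 246 and 205 CPM in cryopreservation-2. Its log2 fold change between cryopreservation-2 and fresh oocytes was 0.41 (SE 0.32, adjusted p = 0.507), and it was −0.04 without cryopreservation-2 replicate 1, the library at 504 CPM. Acat2, the thiolase that joins acetyl groups at the first step, was lowest at 2.40 CPM and highest at 12.9 CPM over the 9 libraries, with groups that overlapped. Fdps, which makes farnesyl diphosphate, stood at 7.78, 5.80 and 9.59 CPM in fresh and at 12.7, 12.4 and 13.7 CPM in cryopreservation-2 libraries. Those groups did not overlap, but Fdps was not called (log2 0.75, SE 0.34, adjusted p = 0.235).

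The scarce enzymes between Hmgcs1 and Idi1 gave few counts. Pmvk had 31, 22 and 49 counts in fresh libraries and 0, 101 and 0 in cryopreservation-1. It had 0 counts in all 3 cryopreservation-2 libraries. With 3 counts over the whole group taken as the floor, Pmvk was at least 25.7-fold lower in cryopreservation-2 than in fresh oocytes. That bound covers counting error only, not the spread between libraries, and 2 of the 3 cryopreservation-1 libraries were at 0 as well. The difference was not called by edgeR (adjusted p = 0.164) but was called by DESeq2 (adjusted p = 0.0441). Mvk was at 0 in fresh replicate 3 and in cryopreservation-2 replicates 1 and 2, with 85 counts at most. Mvd ranged from 6 to 308 counts, and its log2 fold change against fresh oocytes was 2.17 (SE 1.01) in cryopreservation-1 and 1.41 (SE 0.99) in cryopreservation-2, neither called. These values rest on single libraries: without fresh replicate 3 they were 4.17 and 3.41, without fresh replicate 1 the second was 0.89, and without cryopreservation-1 replicate 3 the first was 1.20.

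Of the 3 genes from squalene to lanosterol none was called in any comparison. Fdft1, the squalene synthase, lay between 19.0 and 41.0 CPM in the 9 libraries, and its log2 fold change against fresh oocytes was 0.04 (SE 0.30) in cryopreservation-1 and −0.14 (SE 0.30) in cryopreservation-2. Sqle, the squalene epoxidase, stood at 4.84, 5.78 and 13.8 CPM in fresh, 13.6, 15.0 and 17.5 CPM in cryopreservation-1 and 9.18, 10.3 and 5.35 CPM in cryopreservation-2 libraries. The frozen groups did not overlap for Sqle, whose log2 fold change between them was −0.89 (SE 0.42, adjusted p = 0.281). Lss, the lanosterol synthase, spread almost as widely within the fresh group (4.36, 5.71 and 15.0 CPM) as over all libraries.

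Of the 9 genes from lanosterol to cholesterol none was called either. Msmo1, a sterol oxidase that removes methyl groups, came nearest among the abundant ones. It stood at 81.1, 105 and 86.6 CPM in fresh, 81.8, 58.8 and 91.1 CPM in cryopreservation-1 and 67.7, 43.6 and 28.9 CPM in cryopreservation-2 libraries. Every cryopreservation-2 library was below every fresh one, while the highest of them overlapped cryopreservation-1. Its log2 fold change against fresh oocytes was −0.96 (SE 0.31, adjusted p = 0.0968). DESeq2 called it (adjusted p = 0.0268), and edgeR did so without cryopreservation-2 replicate 1 (log2 −1.27, adjusted p = 0.0361).

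The sterol reductase step has a pair of enzymes, and only Lbr was abundant. Lbr, which also anchors chromatin and lamins at the inner nuclear membrane, stood at 141, 223 and 154 CPM in fresh, 82.0, 104 and 113 CPM in cryopreservation-1 and 218, 185 and 127 CPM in cryopreservation-2 libraries. All 3 cryopreservation-1 libraries were below all others for this gene. Its log2 fold change was −0.79 (SE 0.26, unadjusted p = 0.0120, adjusted p = 1) against fresh oocytes. Between the frozen groups it was 0.82 (SE 0.26, adjusted p = 0.116), and the tests with DESeq2 (adjusted p = 0.0239) and limma (adjusted p = 0.0364) called that difference. Tm7sf2, which catalyses the same step, had at most 21 counts in any library.

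Dhcr7, which performs a last reduction to cholesterol, was most abundant in cryopreservation-1. It stood at 2.49, 1.75 and 1.35 CPM in fresh, 8.59, 9.81 and 2.66 CPM in cryopreservation-1 and 3.12, 1.04 and 1.15 CPM in cryopreservation-2 libraries. The cryopreservation-1 libraries were all above the fresh ones, but replicate 3 was below 1 cryopreservation-2 library. The log2 fold change against fresh oocytes was 1.91 (SE 0.60, unadjusted p = 0.00923, adjusted p = 1), and between the frozen groups it was −1.99 (SE 0.60, adjusted p = 0.103). DESeq2 called the latter (adjusted p = 0.0144).

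Hsd17b7, a sterol ketone reductase, was the steadiest enzyme. It stood at 94.7, 123 and 116 CPM in fresh, 128, 111 and 118 CPM in cryopreservation-1 and 121, 110 and 99.3 CPM in cryopreservation-2 libraries. The 95% interval of its log2 fold change between cryopreservation-2 and fresh oocytes ran from −0.42 to 0.39. Sc5d, a sterol desaturase, had log2 fold changes against fresh oocytes of −0.24 (SE 0.25) and −0.33 (SE 0.25) in cryopreservation-1 and cryopreservation-2. Nsdhl, a sterol dehydrogenase, lay between 5.60 and 13.7 CPM, and Ebp, a sterol isomerase, between 0.403 and 1.46 CPM, with no call for either. Cyp51, the demethylase that acts on lanosterol, had 46 to 324 counts. Its model overlaps by 166 bases that of Akap9 on the opposite strand, which had 2609 to 4087 counts over its whole model.

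The control genes held the clearest difference. Insig1 stood at 249, 253 and 266 CPM in fresh libraries, at 261, 272 and 273 CPM in cryopreservation-1 and at 143, 144 and 102 CPM in cryopreservation-2. The 6 libraries of the first 2 groups lay close together, and all 3 cryopreservation-2 libraries were far below them. Insig1 fell 1.98-fold against fresh oocytes (log2 −0.98, SE 0.18, adjusted p = 0.0184). It fell 2.08-fold against cryopreservation-1 (log2 −1.05, SE 0.18, adjusted p = 0.0211). Between cryopreservation-1 and fresh oocytes its log2 fold change was 0.07, with a 95% interval from −0.33 to 0.47. It was the only gene of the 29 that passed a test of any difference among the 3 groups (adjusted p = 0.0244), which 3.53% of all genes passed. The call against fresh oocytes was lost without fresh replicate 3 (adjusted p = 0.0630) or cryopreservation-2 replicate 3 (0.0616) and when only the 2 groups were fitted (0.0623). The call against cryopreservation-1 was lost without any 1 of its 3 libraries (0.0686 to 0.0923) and without cryopreservation-2 replicate 3 (0.0795).

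Insig2, the second Insig gene, was scarce and had its highest mean in cryopreservation-2. It was at 2.98, 2.03 and 1.96 CPM in fresh, 2.81, 5.15 and 2.37 CPM in cryopreservation-1 and 5.75, 5.00 and 5.30 CPM in cryopreservation-2 libraries. The cryopreservation-2 libraries were all above the fresh ones and overlapped cryopreservation-1. Its log2 fold change against fresh oocytes was 1.20 (SE 0.39, adjusted p = 0.106), which DESeq2 called (adjusted p = 0.0158). The ratio of Insig1 to Insig2 in FPKM was 94.6, 141 and 154 in fresh, 105, 59.7 and 132 in cryopreservation-1 and 28.2, 32.5 and 21.7 in cryopreservation-2 libraries. That ratio was lower in each cryopreservation-2 library than in any other, with Insig1 still the more abundant gene in all 9.

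Nr1h2 encodes the liver X receptor beta, a nuclear receptor that senses oxysterols and turns on cholesterol export. It stood at 98.3, 139 and 116 CPM in fresh, 112, 113 and 104 CPM in cryopreservation-1 and 38.7, 68.9 and 64.2 CPM in cryopreservation-2 libraries. All cryopreservation-2 libraries were below all others. Nr1h2 fell 2.06-fold against fresh oocytes (log2 −1.04, SE 0.24, adjusted p = 0.0376), and its log2 fold change against cryopreservation-1 was −0.94 (adjusted p = 0.0682). DESeq2 (adjusted p = 0.00721) and limma (0.0360 and 0.0426 at the larger and smaller pseudocount) called the latter. The call against fresh oocytes was lost without any single library of the 9 (adjusted p = 0.0577 to 0.0980), always in the same direction.

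**Figure D3:**
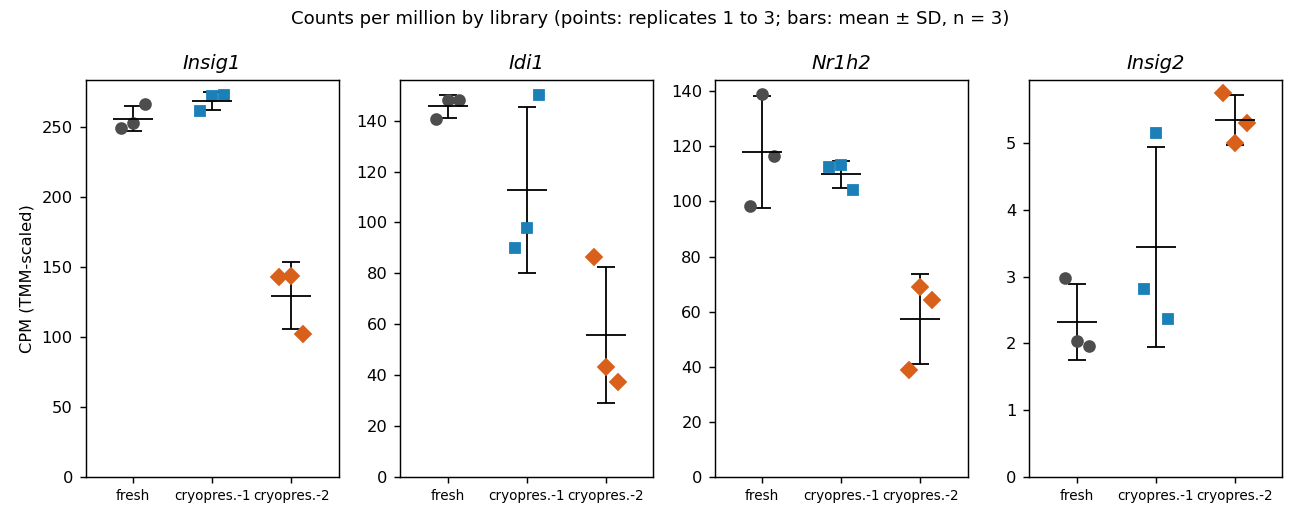
TMM-scaled CPM of Insig1, Idi1, Nr1h2 and Insig2 in each library, with the mean and SD of 3 libraries a group; cryopres.-1 and cryopres.-2 are the 2 frozen groups and each vertical axis starts at 0. All cryopreservation-2 points lie below all others for Insig1, Idi1 and Nr1h2, and above the fresh points for Insig2.

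The SREBP genes and Scap had lower means in cryopreservation-2, but 1 library set much of that. Srebf1 stood at 14.8, 49.3 and 46.4 CPM in cryopreservation-2, against 101, 94.2 and 44.4 CPM in fresh and 124, 78.2 and 45.4 CPM in cryopreservation-1. Srebf2 stood at 6.07, 40.7 and 41.2 CPM in cryopreservation-2, against 63.6, 43.5 and 39.4 CPM in fresh and 90.0, 48.8 and 46.4 CPM in cryopreservation-1. Scap stood at 31.2, 104 and 144 CPM in cryopreservation-2, against 194, 161 and 128 CPM in fresh and 190, 143 and 146 CPM in cryopreservation-1. In each case replicate 1 was far below replicates 2 and 3, which reached the lower fresh libraries or came near them. None was called. The log2 fold changes against fresh oocytes were −1.12 for Srebf1, −0.74 for Srebf2 and −0.79 for Scap, and without cryopreservation-2 replicate 1 they were −0.68, −0.20 and −0.32.

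Of the 29 genes, 15 were above both other cryopreservation-2 libraries in replicate 1 (35.2% of all genes tested), 8 were below both (41.1%), and 6 lay between or tied. In replicate 3, 6 were above both others (31.8%) and 15 below both (28.2%), and in replicate 2, 7 were above (31.7%) and 4 below (24.7%). In replicate 1 the 8 lower ones were Srebf1, Srebf2, Scap, Nr1h2 and Npc1, and the enzymes Fdft1, Cyp51 and Ebp. Hmgcs1 and Idi1 were among the higher ones, and so were Insig2, Stard4 and Soat1 of the control and transport genes. Enzymes and control or transport genes thus lay on both sides. Cryopreservation-2 replicate 1 also had 8667 genes at 0 counts, where the other cryopreservation-2 libraries had 6351 and 6894. It was not alone in this, as fresh replicate 3 had 9108 and cryopreservation-1 replicate 3 had 8421. The part of cryopreservation-2 replicate 1 in the values above was not tested beyond the fits without it.

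**Figure D4:**
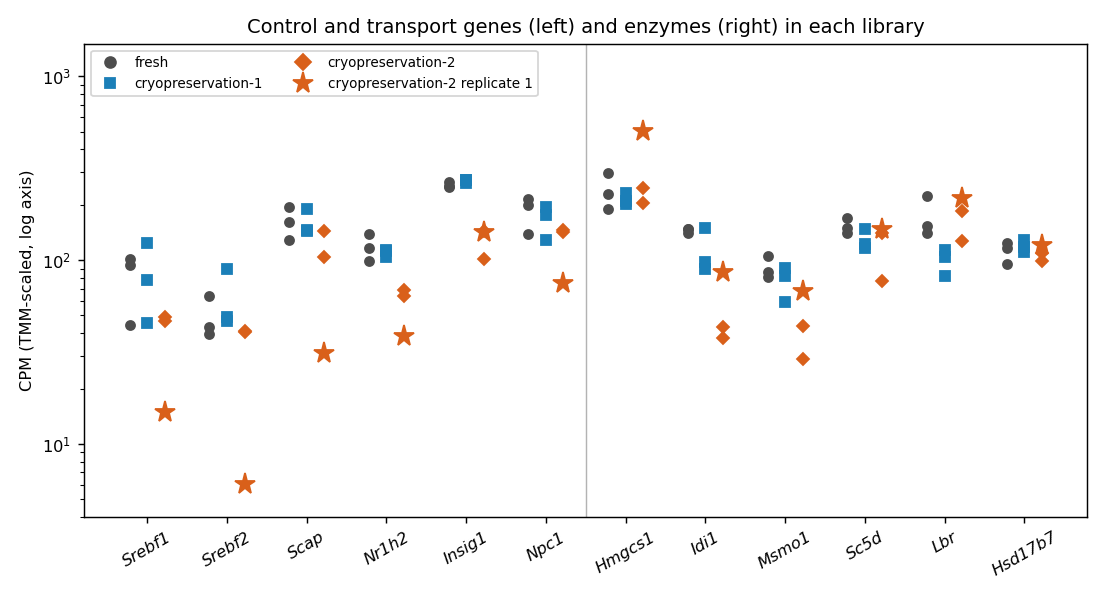
TMM-scaled CPM (log axis) of control and transport genes (left of the line) and enzymes (right) in each library, with stars for cryopreservation-2 replicate 1. The stars lie below the other cryopreservation-2 points for Srebf1, Srebf2, Scap, Nr1h2 and Npc1, and above them for Hmgcs1, Idi1, Msmo1 and Lbr. The genes shown are a selection. Among those not shown, replicate 1 was below both others for the enzymes Fdft1, Cyp51 and Ebp, and above both for Insig2, Stard4 and Soat1.

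None of the 4 transport and storage genes was called. Npc1 and Npc2, which pass cholesterol out of the lysosome together, had fold changes of opposite sign in cryopreservation-2, at −0.61 (SE 0.29) and 0.48 (SE 0.26) on the log2 scale against fresh oocytes. Without cryopreservation-2 replicate 1 the value of Npc1 was −0.30. Stard4, a soluble carrier of cholesterol, stood at 21.8, 26.0 and 23.8 CPM in fresh, 30.4, 22.8 and 32.0 CPM in cryopreservation-1 and 18.5, 15.7 and 15.6 CPM in cryopreservation-2 libraries. The cryopreservation-2 libraries were below all others for Stard4. Its log2 fold change was −0.52 (SE 0.22, adjusted p = 0.204) against fresh oocytes and −0.77 (SE 0.22, adjusted p = 0.0897) against cryopreservation-1, and DESeq2 called the latter (adjusted p = 0.00587). Soat1, which esterifies cholesterol for storage, had log2 fold changes against fresh oocytes of 0.10 (SE 0.22) and −0.23 (SE 0.22).

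Beside these 29 genes, 91 further genes of sterol biology were listed in 4 groups, of which 84 were in the table and 79 could be tested. None was called between cryopreservation-1 and fresh oocytes. Of the 21 tested synthesis and isoprenoid genes and the 19 tested genes of SREBP processing and protein degradation, none was called in any comparison. The synthesis and isoprenoid gene with the highest mean FPKM was Fnta, a farnesyltransferase subunit, whose log2 fold change between cryopreservation-2 and fresh oocytes was −0.03 (SE 0.25).

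Of 30 tested genes of uptake, efflux and transport, 1 was called lower in cryopreservation-2 against fresh oocytes (2.2% of all genes) and 1 against cryopreservation-1 (1.25%), counts near those shares. Stard3nl, which tethers endosomes to the endoplasmic reticulum, stood at 298, 423 and 298 CPM in fresh and at 193, 191 and 203 CPM in cryopreservation-2 libraries (log2 −0.79, SE 0.19, adjusted p = 0.0376). Osbpl2, an oxysterol-binding protein family gene, stood at 15.4, 12.9 and 25.0 CPM in cryopreservation-1 and at 3.10, 6.79 and 5.45 CPM in cryopreservation-2 libraries (log2 −1.80, SE 0.37, adjusted p = 0.0345). Neither pair of groups overlapped. Tmem97, the most abundant of this list and a partner of Npc1, differed from fresh oocytes in cryopreservation-2 by −0.51 on the log2 scale (SE 0.31, adjusted p = 0.393). The Stard3nl call was lost in every fit that left out 1 library, and the Osbpl2 call without fresh replicate 1 and in every fit that left out a library of the frozen groups.

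Of 9 tested genes of sterol-sensing receptors, esterification and oxysterols, 2 were called in each comparison of cryopreservation-2, 1 higher and 1 lower, against 5.38% of all genes for fresh and 2.75% for cryopreservation-1. Both encode hydroxylases that act on oxysterols. Cyp39a1 stood at 12.8, 10.4 and 17.6 CPM in fresh, 16.4, 13.0 and 19.0 CPM in cryopreservation-1 and 51.2, 34.3 and 40.0 CPM in cryopreservation-2 libraries. It was higher in cryopreservation-2 than in fresh oocytes by 1.62 on the log2 scale (SE 0.28, adjusted p = 0.0136) and than in cryopreservation-1 by 1.38 (SE 0.28, adjusted p = 0.0322). Cyp7b1 stood at 8.78, 13.2 and 19.7 CPM in fresh, 12.6, 11.0 and 10.6 CPM in cryopreservation-1 and 3.09, 2.21 and 4.30 CPM in cryopreservation-2 libraries. Its log2 fold change was −2.12 (SE 0.37, adjusted p = 0.0140) against fresh oocytes and −1.83 (SE 0.37, adjusted p = 0.0308) against cryopreservation-1. No cryopreservation-2 library overlapped another group for either gene. The calls against cryopreservation-1 were lost for both when any 1 library of either frozen group was left out, and that of Cyp7b1 against fresh oocytes without fresh replicate 3 (adjusted p = 0.0506) or cryopreservation-2 replicate 2 (0.0566). Hsd3b7, the most abundant of the list and an enzyme of bile acid synthesis, had a log2 fold change of 0.13 (SE 0.21) between cryopreservation-2 and fresh oocytes.

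Libraries held 49337232 to 80877288 counts, the smallest 3 being those of cryopreservation-2, and the 29 genes took 0.153% to 0.197% of them. Summed over the 29 genes, CPM was 1899 to 2072 in fresh, 1787 to 1918 in cryopreservation-1 and 1312 to 1687 in cryopreservation-2 libraries. In bulk libraries fewer cells of a type and less RNA per cell cannot be told apart. The 13 oocyte markers were all tested, none was called, and they took 2.19% to 3.80% of counts. Without overlap, 4 of the 13 were higher in cryopreservation-2 than in fresh oocytes, where 15.1% of all genes were. Against cryopreservation-1 it was also 4, where 13.8% of all genes were, and 0 were lower in either comparison. Cumulus and granulosa markers (12 of 18 in the table, 8 tested, none called) took 0.0938% to 0.175%. Their summed CPM was 932 to 1430 in fresh, 1062 to 1290 in cryopreservation-1 and 956 to 1703 in cryopreservation-2 libraries. Most of it came from Serpine2, at 55504 to 94527 counts, while the defining granulosa gene Fshr had 15 to 108 counts, Cyp19a1 1671 to 5264 counts, and Cyp11a1, Ptgs2 and Nr5a1 were at 0 in some libraries. Immune and blood markers took at most 0.00146% of counts, with none called. Of 5 tested genes of the stromal and endothelial list, which also holds keratins, Myh11 and Krt8 were called higher in cryopreservation-2 against fresh oocytes. Of all genes 3.18% were called higher there, and that list took 0.00978% to 0.0201% of counts. In cryopreservation-1 against fresh oocytes none of the list was called, but 2 were higher without overlap, where 6.37% of all genes were. The part of these marker genes in the differences above was not tested.

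Of the 29 genes, 9 overlap another gene of the table, and Insig1, Idi1 and Nr1h2 do not. How strands were treated in counting is not given in the sources used here. Reads of Cyp51, Fdft1, Npc1, Lbr, Srebf1, Scap, Hmgcs1 and Soat1 may therefore include some of a neighbour on the opposite strand. Tm7sf2 overlaps Vps51 by 9 bases on the same strand, where strand cannot separate them. Outside Cyp51 the neighbours with the most counts were Rmc1 beside Npc1 (2370 to 7305 counts), Ctsb beside Fdft1 (863 to 2774 counts) and Dnah14 beside Lbr (848 to 2406 counts). Those overlaps span 967, 774 and 440 bases.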

How the data were processed

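Per the labels' protocols, poly(A) RNA was selected from Trizol-extracted total RNA and made into dUTP-marked cDNA libraries. The submitters' processing notes name cutadapt 1.9, HISAT2 2.0.4, StringTie 1.3.4d and the build GRCm38. Which program counted the reads, whether it used strand and which annotation it read is not stated in the labels. The authors deposited 1 table with raw read counts and FPKM values per gene for each of the 9 libraries. Nothing in the labels ties replicates to separate animals or pools. P-values therefore measure only the spread between these samples, and it may be technical. Replicates were compared pairwise by chi-square and differed by more than sampling noise.

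Genes were kept by filterByExpr (minimum count 10, minimum total 15), which left 17545. edgeR 4.0.16 (R 4.3.3) with TMM scaling fitted all 9 libraries in 1 quasi-likelihood model. P-values were adjusted by Benjamini and Hochberg over all genes of a comparison, and the threshold was 0.05. SEs are the log2 fold change divided by the square root of F. The scripts were tested on simulated data. A count of 0 in 1 library allows up to 3 counts, and this floor covers counting error only. The 95% intervals of fold changes come from the edgeR fit and cover the spread between libraries. Alternatives were DESeq2 1.42.0, limma 3.58.1 on log2(FPKM + 1) and log2(FPKM + 0.1) for genes with a mean of at least 1 FPKM, other scalings and filters, a gene-length offset, fits of 2 groups only, a replicate term, and leaving out libraries. Motifs were searched on both strands.

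The 29 genes and the further lists were chosen with earlier results of these data known. Named beside the 29 are every gene of the further lists that was called in a comparison and the gene with the highest mean FPKM of each list, except 1 that is not reported here. The oocyte, cumulus and granulosa, immune and blood, and stromal and endothelial marker lists came from general knowledge.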

Additional observations from a re-analysis of the deposited data

How the results depend on the processing

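In the comparisons in which Insig1, Idi1 and Nr1h2 were called, their direction held in every setting run. The number of genes called between cryopreservation-2 and fresh oocytes was 944, of which 59.1% were higher. It was 2730 with DESeq2, 1688 and 1597 with limma at the larger and smaller pseudocount (74.0% and 73.8% higher), and 429 with the 2 groups alone (82.1% higher). Between the frozen groups it was 483 (54.5% higher), and 2137, 1271, 1077 and 540 in those fits. RLE scaling gave 484 (64.0% higher) and the length offset 522 (65.3% higher) there. Between cryopreservation-1 and fresh oocytes DESeq2 called 67 and the fit of 2 groups alone 1, against 0. Of the 29 genes DESeq2 called 6 in each comparison of cryopreservation-2, of which 1 was higher in each. Limma tested 20 of the 29 and called 4 and 3 between the frozen groups at the larger and smaller pseudocount. The fit of 2 groups alone tested 28 of the 29 and called 0 against fresh oocytes, where the count had been 3. The share of all genes called in these fits is not given here, so these counts are not set against it. Idi1 lost its call with the length offset (adjusted p = 0.0654) and Nr1h2 without a filter on low counts (0.0571).

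Leaving out 1 library at a time gave 0 to 1, 231 to 786 and 15 to 480 genes called in the comparisons of cryopreservation-1 with fresh, cryopreservation-2 with fresh and cryopreservation-2 with cryopreservation-1. Of the 29 genes it gave 0 to 0, 0 to 3 and 0 to 2. The lowest counts were 231 without fresh replicate 3 and 15 without cryopreservation-1 replicate 1. A fit chosen after seeing the data, without the 3 libraries that had the fewest genes detected (fresh replicate 3, cryopreservation-1 replicate 3 and cryopreservation-2 replicate 1), called 194 genes against fresh oocytes and 0 between the frozen groups. Of the 29 it called 1 (Idi1, log2 −1.75) and 0. These fits have fewer libraries, and the causes of the other changes were not tested.

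The replicate numbers are shared between groups, but the labels state no pairing. Same-numbered libraries had correlations of their deviations from the group means between −0.125 and 0.122. Between fresh and cryopreservation-1 these were 0.0722, 0.0786 and 0.122, above those of all differently numbered pairs of these groups. Between fresh and cryopreservation-2 they were −0.0700, 0.0591 and −0.0887, and between the frozen groups −0.125, 0.0217 and −0.0800. The main fit did not take the numbers to pair the samples, but a pairing of fresh with cryopreservation-1 is not excluded. With the replicate number as a block, 500 genes were called between cryopreservation-2 and fresh oocytes (70.4% higher) and 230 between the frozen groups. Of the 29 genes the block left 1, Insig1, and 0.

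Low counts limit Pmvk, Mvk and Tm7sf2, which were at 0 counts in 5, 3 and 2 libraries. For Pmvk these included cryopreservation-1 replicate 1, the library with the most counts.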
